A study of Homo sapiens with 39 samples.

Results

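Selenoproteins are proteins, many of them enzymes, that carry the amino acid selenocysteine, and 10 of the genes that encode them were followed across a time course of a monocytic cell line treated with G-rich oligonucleotides. The genes were SELENOW, SELENOH, GPX1, GPX4, TXNRD1, TXNRD2, SELENOS, SELENOK, SELENON and MSRB1. They were taken by symbol, and 21 probe sets on the array were annotated to 1 of them alone, of 44988 probe sets with a single symbol. At the gene level they are 10 of 18132 genes. The genes were selected on the deposited log2 values of the treated and untreated cells, by a list drawn up with those values known. All differences of these genes between groups, those between oligonucleotides included, are therefore given as levels and differences with their errors. Where a count of these genes past a statistical threshold is printed, it describes chosen genes and is no test of them. These values support nothing beyond themselves.

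The cells were U937, an established human line from a histiocytic lymphoma that is used as a model of immature monocytes. Exponentially growing cultures received 10 µM of Pu27, Pu9- or Pu5- and were collected at 24, 48 or 72 h, and untreated cultures were collected at 0, 24, 48 and 72 h. Each of these 13 groups had 3 arrays, 39 in all, so 27 arrays held treated and 12 untreated cells. Pu27 has 27 nt with 20 guanines, Pu9- is the stretch of Pu27 from position 7 to 26 with 15 guanines, and Pu5- has 42 nt with 31 guanines and shares a run of 21 nt with Pu27. All cells were of this 1 line, and no oligonucleotide of unrelated sequence is among these groups, so the untreated cells differ from the treated ones in having received no oligonucleotide at all. The labels mention 3 repeat experiments but do not say which arrays belong to which, so the errors and p-values measure the spread between these arrays. Of 9 myeloid markers measured, LYZ, ELANE and CEBPA had the highest mean log2 levels, 12.99, 12.0 and 11.2, while SPI1 and MPO, at 5.29 and 4.85, were low. The 9 levels summed to between 80.1 and 82.1 in the treated groups, and to 84.4, 80.8, 82.3 and 82.0 in untreated cells at 0, 24, 48 and 72 h. Of 18 measured markers of other cell types (lymphocytes, red cells, epithelium, fibroblasts), 16 had mean levels between 2.65 (LUM) and 6.06 (CD79A), the exceptions being PAX5 at 9.13 and HBB at 7.33. Array medians lay between 5.83 and 5.94. Values are RMA values in log2 units, in which a difference of 1 is a doubling.

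Selenocysteine is inserted at a UGA codon, which otherwise stops translation, when a stem-loop in the untranslated tail of the mRNA recruits a dedicated elongation factor through a binding protein. The best known selenoproteins use the selenium atom to reduce peroxides, disulfides or oxidised methionine, with electrons from glutathione or NADPH. When mammalian cells lack selenium, the mRNAs of GPX1, SELENOW and SELENOH are among those known to decline, through nonsense-mediated decay, while those of GPX4 and TXNRD1 are better kept. Monocytic cells use these enzymes to limit the peroxides they make themselves. The arrays measured neither selenium nor protein.

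The members with the largest deficits in treated cells were SELENOW and SELENOH, small proteins with a thioredoxin-like fold, SELENOH a nucleolar one, and GPX1, the cytosolic glutathione peroxidase. Their promoter windows are shown because these 3 genes were the ones lower in treated cells at every time without overlap of arrays. Each is the 250 bases before the RefSeq transcript start (build GRCh38.p14), written 5′ to 3′ along the gene, with the GC-box letters GGGCGG, read on either strand, in capitals.
SELENOW (chr19:47778453-47778702, plus strand): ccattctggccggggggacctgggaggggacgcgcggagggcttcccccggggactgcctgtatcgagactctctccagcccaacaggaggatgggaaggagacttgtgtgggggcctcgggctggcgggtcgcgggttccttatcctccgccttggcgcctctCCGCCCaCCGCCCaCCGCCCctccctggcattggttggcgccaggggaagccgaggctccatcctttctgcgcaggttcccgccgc
SELENOH (chr11:57741241-57741490, plus strand): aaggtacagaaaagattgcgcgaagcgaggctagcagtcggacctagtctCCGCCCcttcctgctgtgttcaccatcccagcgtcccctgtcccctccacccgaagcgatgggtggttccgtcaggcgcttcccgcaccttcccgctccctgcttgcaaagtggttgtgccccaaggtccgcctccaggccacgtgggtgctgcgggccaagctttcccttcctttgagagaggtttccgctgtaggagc
GPX1 (chr3:49358354-49358603, minus strand): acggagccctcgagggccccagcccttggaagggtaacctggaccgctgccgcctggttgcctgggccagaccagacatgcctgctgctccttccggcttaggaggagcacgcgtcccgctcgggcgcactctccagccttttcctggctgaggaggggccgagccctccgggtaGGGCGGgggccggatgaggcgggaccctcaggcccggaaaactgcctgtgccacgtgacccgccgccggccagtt
The window of SELENOW held 3 GC boxes, and those of SELENOH and GPX1 held 1 each. Their GC content was 70.4%, 62.4% and 70.8%, against a median of 58.0% over 35116 promoter windows of this length. All 10 members matched at least 1 RefSeq promoter, 15 windows in all, since some genes have several starts. GGGCGG was found in 13 of the 15 member windows and in 42.64% of all windows. The letters TGACNNNGC, the core of the antioxidant response element, were found on either strand in 4 member windows and in 10.91% of all windows, and in none of the 3 printed. A G-quadruplex motif, 4 runs of at least 3 guanines with spacers of 1 to 7 bases on either strand, was found in 7 member windows and in 23.45% of all. SELENOW and SELENOH had that motif, as had GPX4, SELENON and a window of TXNRD2, and GPX1 did not. Windows of a gene can overlap, as some of GPX4 do, so the member windows are not independent. Most of them held more GC than the median window, so the shares over all windows are no like background. GC boxes lie within guanine runs at times, so these motifs can overlap. A match in these windows is a matter of letters and shows no binding.

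SELENOW was measured by 1 probe set. At 24 h its log2 levels were 6.61, 6.46 and 6.34 with Pu27, 6.25, 6.36 and 6.35 with Pu9- and 6.34, 6.42 and 6.41 with Pu5-, against 7.57, 7.73 and 7.79 in untreated cells. Every treated array lay far below every untreated one. At 48 h they were 6.46, 6.29 and 6.43 with Pu27, 6.28, 6.30 and 6.34 with Pu9- and 6.17, 6.01 and 6.40 with Pu5-, against 6.99, 6.91 and 6.99 in untreated cells. At 72 h they were 6.03, 6.13 and 6.29 with Pu27, 6.10, 6.26 and 6.31 with Pu9- and 6.13, 6.23 and 6.26 with Pu5-, against 6.51, 6.56 and 6.62 in untreated cells. The groups did not overlap at any time, and the gap narrowed from 24 to 72 h. SELENOW differed by -1.23, -1.38 and -1.31 at 24 h with Pu27, Pu9- and Pu5- (each ± 0.09, the standard error of limma's linear model), which is 2.34, 2.60 and 2.47-fold lower than in untreated cells. The differences at 72 h were -0.41, -0.34 and -0.36, or 1.33, 1.27 and 1.28-fold lower.

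The size of the SELENOW gap went with the untreated time course. Untreated cells at 0 h had 6.76, 6.54 and 6.58, and the level at 24 h was 1.07 above that mean, or 2.10-fold higher. It was 0.34 above the 0 h mean at 48 h and differed from it by -0.06 at 72 h. The 9 treated groups differed from the 0 h mean by between -0.15 and -0.47. At 24 h, then, the untreated level stood well above the starting level and the treated levels a little below it.

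GPX1 and SELENOH, in their brighter probe sets, had another shape, with untreated levels at or a little below the 0 h level and treated levels further below it. The brighter probe set of GPX1 read 11.68, 11.54 and 11.40 at 24 h with Pu27, 11.56, 11.60 and 11.70 with Pu9- and 11.33, 11.30 and 11.47 with Pu5-, against 12.38, 12.12 and 12.34 in untreated cells. At 48 h GPX1 stood at 11.81, 11.60 and 11.74 with Pu27, 11.62, 11.56 and 11.66 with Pu9- and 11.55, 11.45 and 11.47 with Pu5-, against 12.49, 12.26 and 12.46 in untreated cells. At 72 h it stood at 12.00, 12.08 and 12.26 with Pu27, 11.92, 12.02 and 12.16 with Pu9- and 11.82, 11.90 and 12.00 with Pu5-, against 12.32, 12.27 and 12.40 in untreated cells. Every treated array was below every untreated array of its time, by the smallest margin with Pu27 at 72 h, and the treated levels were highest at 72 h. The differences at 24 h were -0.74, -0.66 and -0.91 (± 0.09) with Pu27, Pu9- and Pu5-, and those at 72 h were -0.22, -0.30 and -0.43. Untreated GPX1 read 12.67, 12.42 and 12.44 at 0 h and differed from that mean by -0.23, -0.11 and -0.18 at 24, 48 and 72 h. The treated groups differed from it by between -0.40 and -1.14.

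SELENOH, read from its brighter probe set, had no overlap even across times: its highest treated array of all times, 11.83, lay below its lowest untreated array, 12.11. At 24 h the levels were 11.53, 11.69 and 11.41 with Pu27, 11.57, 11.56 and 11.65 with Pu9- and 11.40, 11.40 and 11.44 with Pu5-, against 12.23, 12.20 and 12.20 in untreated cells. At 48 h they were 11.68, 11.71 and 11.72 with Pu27, 11.69, 11.70 and 11.61 with Pu9- and 11.62, 11.52 and 11.52 with Pu5-, against 12.29, 12.20 and 12.28 in untreated cells. At 72 h they were 11.61, 11.75 and 11.83 with Pu27, 11.74, 11.65 and 11.73 with Pu9- and 11.71, 11.64 and 11.66 with Pu5-, against 12.15, 12.13 and 12.11 in untreated cells. The untreated arrays of a time lay close together at 24, 48 and 72 h, and all treated arrays lay below them. At 24 h all Pu9- arrays lay above all Pu5- arrays, and at 48 h all Pu27 arrays did. The share of all genes with such a separation between oligonucleotides was not counted, so nothing is read from it. The differences from untreated cells were -0.67, -0.62 and -0.80 at 24 h and -0.40, -0.42 and -0.46 at 72 h, each ± 0.07, with Pu27, Pu9- and Pu5-. Relative to untreated cells at 0 h, with 12.48, 12.27 and 12.30, the treated groups differed by between -0.62 and -0.94. Untreated SELENOH differed from 0 h by -0.13, -0.09 and -0.22 (± 0.07) at 24, 48 and 72 h, and at 24 and 72 h all its untreated arrays were below those of 0 h. How many of all genes separate so between untreated times was not counted either. The second probe set of SELENOH averaged 12.02 in untreated cells at 0 h and 11.93, 12.13 and 11.98 at 24, 48 and 72 h, with hardly a fall at 72 h.

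**Figure D1:**
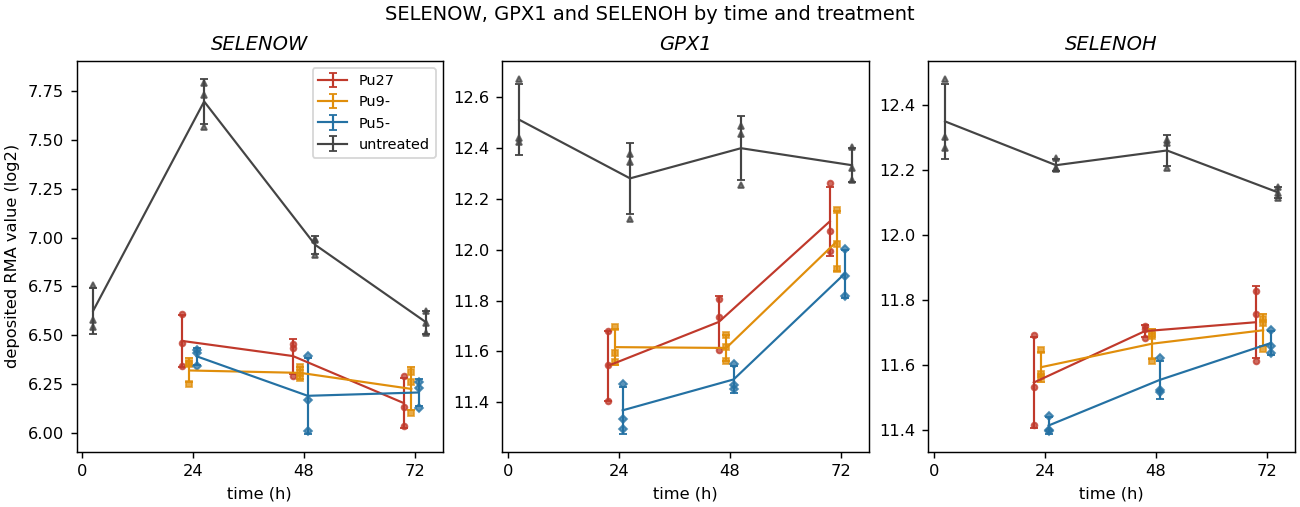
Deposited RMA values (log2, vertical axes) of SELENOW, GPX1 and SELENOH against time in hours, for Pu27, Pu9-, Pu5- and untreated cells. Small symbols are arrays, set slightly apart sideways, and lines join group means with bars of 1 SD (n = 3 each). Untreated SELENOW peaks at 24 h at a mean of 7.70 while treated means stay between 6.15 and 6.47, whereas untreated GPX1 and SELENOH stay between 12.13 and 12.51 and the treated means lie below them.

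Ordered by level over the 13 groups, the 9 treated groups of SELENOW, SELENOH and GPX1 were the 9 lowest, and the 4 untreated groups the 4 highest. How many of all genes share this order was not counted, nor how many have all treated arrays below all untreated ones, as SELENOH had. These genes were chosen with such values known. For SELENOW the arrays of neighbouring groups overlapped except for untreated 48 h over untreated 0 h, a gap of 0.34, and untreated 24 h over untreated 48 h, a gap of 0.73. For SELENOH the lowest untreated group, 72 h at 12.13 (SD 0.02, n = 3), stood 0.40 above the highest treated group, Pu27 at 72 h with 11.73 (SD 0.11), without overlap, and the untreated 24 h and 72 h groups did not overlap either. For GPX1 the 9 treated groups ran from 11.37 (Pu5-, 24 h) to 12.11 (Pu27, 72 h), with no overlap between Pu5- at 72 h (11.91) and its lower neighbour, Pu27 at 48 h (11.72), and the highest of them overlapped with the lowest untreated group, 24 h at 12.28. Neighbours in these orders that overlapped are not told apart by these arrays.

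As limma counts them, with Benjamini-Hochberg adjusted p below 0.05 over all genes, 3 of the 10 members passed at 24 h with Pu27, where 0.0662% of all genes did, and 3 passed with Pu9- and with Pu5-, where 0.0165% did in each. At 48 h the count was 3 with Pu27 (0.193% of all genes), 3 with Pu9- (0.0165%) and 3 with Pu5- (0.0165%). At 72 h it was 3 with Pu27 (5.08%), 1 with Pu9- (0.96%) and 3 with Pu5- (0.778%). For the mean of the 3 times it was 4 with Pu27 (3.98%), 3 with Pu9- (0.0882%) and 3 with Pu5- (0.254%). Where 3 passed they were SELENOW, SELENOH and GPX1, all lower, except with Pu27 at 72 h. There SELENOW and SELENOH passed, both lower, and SELENOS, higher, while GPX1 did not. With Pu9- at 72 h only SELENOH passed. Over the mean with Pu27, SELENOS passed as higher beside the 3 lower genes. The 72 h count with Pu5- was 1 without Pu5- replicate 1 or 2 or untreated replicate 1 or 3, and that with Pu9- was 2 without Pu9- replicate 1 and 0 without replicate 2. These counts took part in the choice of the genes, and nothing is read from them. The 3 oligonucleotides were set against the same untreated arrays at each time, so their differences from untreated cells are not independent of each other. The median difference over the 10 members was -0.11, -0.12 and -0.17 at 24 h with Pu27, Pu9- and Pu5-, beside medians over all genes of -0.01, 0.01 and -0.01. SELENOW, SELENOH and GPX1 were all lower, without overlap, in 9 of 9 comparisons. Of all genes, 5.37%, 5.54% and 8.9% were lower without overlap with Pu27 at 24, 48 and 72 h, 3.36%, 4.13% and 6.73% with Pu9-, and 5.15%, 5.01% and 5.92% with Pu5-. In bulk arrays such as these, fewer cells of a kind and less RNA per cell cannot be told apart.

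**Figure D2:**
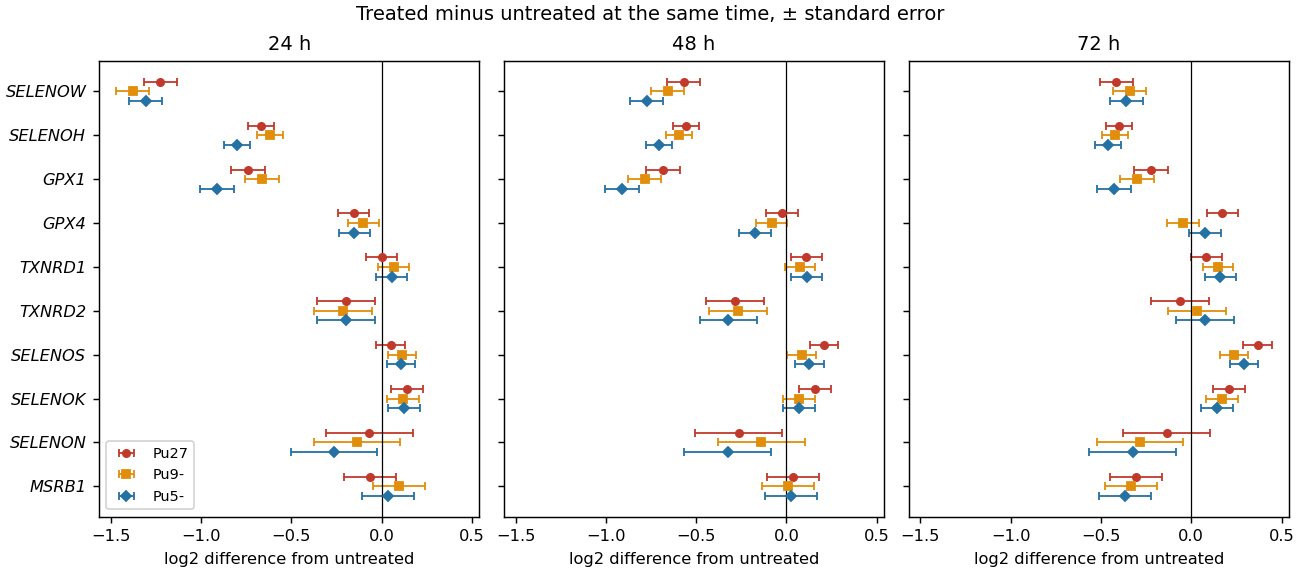
Difference of each member from untreated cells of the same time (log2, horizontal axes) at 24, 48 and 72 h, with bars of 1 standard error from limma, for Pu27, Pu9- and Pu5- (3 arrays a group). SELENOW, SELENOH and GPX1 lie left of 0 at every time, SELENOW as far as -1.38 at 24 h, and the other 7 genes lie between -0.37 and 0.37.

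The remaining enzymes that reduce peroxides and disulfides, in their brightest probe sets, differed little from untreated cells. GPX4, which reduces lipid hydroperoxides in membranes and protects from ferroptosis, averaged 11.41 (SD 0.11), 11.46 (SD 0.04) and 11.41 (SD 0.05) at 24 h with Pu27, Pu9- and Pu5-, and 11.57 (SD 0.13) in untreated cells (n = 3 each). Its differences over the 9 comparisons ran from -0.17 to 0.17, and the arrays overlapped in 8 of them. TXNRD1, the cytosolic thioredoxin reductase, followed the time in culture in every arm. It averaged 10.61, 10.67 and 10.66 at 24 h with Pu27, Pu9- and Pu5-, and 10.61 in untreated cells, and at 72 h 10.11, 10.17 and 10.18, and 10.02 in untreated cells. Its differences ran from -0.0002 to 0.16. With Pu9- and Pu5- at 72 h its treated arrays were all higher than the untreated ones, as for 7.7% and 8.45% of all genes. The dimmer probe sets of TXNRD1 averaged 8.81 and 8.54 with Pu5- at 24 h, against 8.43 and 8.18 in untreated cells. TXNRD2, the mitochondrial thioredoxin reductase, was dimmer and more scattered, with a pooled SD within groups of 0.21, and differed by between -0.32 and 0.08. Its arrays were all lower in 1 of 9 comparisons, with Pu9- at 48 h, as for 4.13% of all genes.

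MSRB1, which reduces oxidised methionine in proteins such as actin, changed more with time than with treatment. Its means were 9.45, 9.60 and 9.55 at 24 h with Pu27, Pu9- and Pu5-, and 9.51 in untreated cells. At 72 h they were 7.68, 7.65 and 7.62, and 7.98 in untreated cells. Untreated cells at 0 h had 8.73, so the level was higher than that at 24 h and lower at 72 h in all arms. The 72 h arrays read 7.71, 7.58 and 7.74 with Pu27, 8.16, 7.29 and 7.51 with Pu9- and 7.95, 7.35 and 7.56 with Pu5-, against 8.08, 7.85 and 8.02 in untreated cells. Replicate 1 of Pu9- and of Pu5- stood within or above the untreated range, so only the Pu27 arrays were all below it.

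Of the members of the endoplasmic reticulum, SELENOK and SELENOS, the latter in its brighter probe set, stood a little higher than untreated cells at 72 h. SELENON could not be resolved. SELENOS, part of the machinery that draws misfolded proteins out of the endoplasmic reticulum, read 9.53, 9.65 and 9.63 at 72 h with Pu27, 9.43, 9.49 and 9.49 with Pu9- and 9.50, 9.56 and 9.51 with Pu5-, against 9.24, 9.26 and 9.20 in untreated cells. All treated arrays lay above all untreated ones at that time, with differences of 0.37, 0.24 and 0.29 (± 0.08). These are values of its brighter probe set. The second gave 0.05, 0.14 and -0.01 (± 0.12) at 72 h with Pu27, Pu9- and Pu5-, so the higher level at that time was not seen with both. SELENOK, a membrane protein of the same compartment that takes part in calcium signalling of immune cells, differed at 72 h by 0.21, 0.17 and 0.14 (± 0.09) with Pu27, Pu9- and Pu5-, again without overlap. At 72 h, 12%, 7.7% and 8.45% of all genes were higher without overlap with Pu27, Pu9- and Pu5-. At 24 h SELENOS and SELENOK overlapped with untreated cells in every comparison. SELENON, a protein of the same membranes linked to congenital myopathy, had the widest scatter of the members, a pooled SD of 0.32. Its differences of between -0.33 and -0.07, each ± 0.24, came with overlapping arrays in all 9 comparisons.

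**Figure D3:**
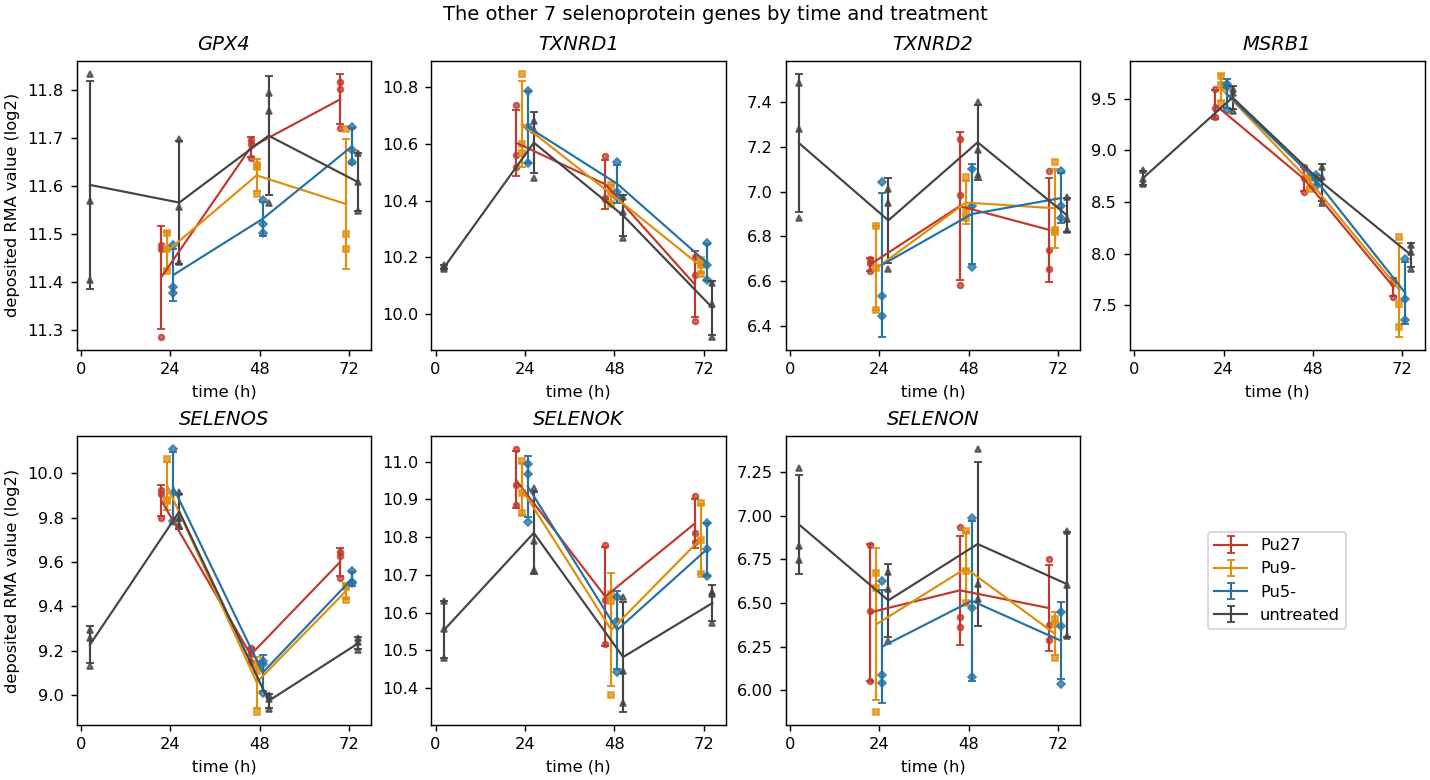
Deposited RMA values (log2, vertical axes) against time in hours for GPX4, TXNRD1, TXNRD2, MSRB1, SELENOS, SELENOK and SELENON, with arrays as small symbols and lines joining group means with bars of 1 SD (n = 3 each). MSRB1, SELENOS and TXNRD1 follow a similar time course in all 4 arms, MSRB1 reaching means of 7.62 to 7.98 at 72 h, and the SELENOS arrays at 72 h separate treated from untreated cells.

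Several members differed between untreated cultures of different times, and these values are also descriptions because the untreated arrays had part in the choice. From 0 to 24 h the difference was 1.07 for SELENOW, 0.78 for MSRB1, 0.60 for SELENOS, 0.44 for TXNRD1 and 0.26 for SELENOK. The second probe set of SELENOS went the other way, with -0.33 (± 0.12), so the direction of SELENOS at 24 h depends on the probe set. GPX4, TXNRD2 and SELENON differed from 0 h at 24 h by -0.04, -0.35 and -0.43, TXNRD2 and SELENON with standard errors of 0.16 and 0.24. By limma, 5 of the 10 members passed at 24 h (SELENOW, MSRB1, SELENOS, TXNRD1 and SELENOK, all higher), where 28.6% of all genes did. SELENOW passed at 48 h (5.18%), and MSRB1 and SELENOH, both lower, at 72 h (15.6%). The second probe set of SELENOH averaged 12.02 at 0 h and 11.98 at 72 h, so the fall of SELENOH was hardly seen with it. At 48 h the differences from 0 h ran from -0.25 for SELENOS to 0.34 for SELENOW, and at 72 h from -0.75 for MSRB1 to 0.07 for SELENOK. The 48 h count was 0 without untreated 0 h replicate 2 or 48 h replicate 1 or 3, and the 72 h count was 1 without untreated 0 h replicate 1 or any 72 h array. The shares, 28.6%, 5.18% and 15.6% at 24, 48 and 72 h, show that many genes differed between untreated cultures of different times, the fewest at 48 h. What made them differ was not tested. MSRB1, SELENOS, TXNRD1 and SELENOK also stood higher at 24 h than untreated 0 h cells with every oligonucleotide, for example SELENOS, in its brighter probe set, by 0.65, 0.71 and 0.71 with Pu27, Pu9- and Pu5-. SELENOW was the exception among the 5, since its treated groups at 24 h differed from 0 h by -0.15, -0.31 and -0.23.

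The other probe sets gave much the same differences for GPX1, and for SELENOH over the mean of the 3 times, but not for SELENOS or TXNRD1. The second probe set of GPX1 differed by -0.60, -0.59 and -0.79 over the mean of the 3 times with Pu27, Pu9- and Pu5-, beside -0.55, -0.58 and -0.75 for the first. That of SELENOH differed by -0.53, -0.55 and -0.63, beside -0.54, -0.55 and -0.66. With Pu27 this second set averaged 11.43, 11.53 and 11.50 at 24, 48 and 72 h, against 11.93, 12.13 and 11.98 in untreated cells. That gap hardly narrowed from 24 to 72 h, unlike the gap in the first set. SELENOW, SELENON and MSRB1 had 1 probe set each and lack this check. Both probe sets of GPX1 and the brighter one of SELENOH carry the _x suffix, which the manufacturer gives to sets with probes that can match other transcripts. For SELENOS the second probe set differed by 0.06, 0.09 and 0.11, less than the 0.21, 0.14 and 0.18 of the first. For TXNRD1 the other 2 probe sets gave 0.38 and 0.36 (± 0.21 and 0.23) with Pu5- at 24 h, beside 0.06 for the brightest, and -0.10 and -0.13 with Pu27 at 72 h, beside 0.08. The dimmest set of TXNRD2 read 3.35, 3.65 and 3.71 at 24 h with Pu27, Pu9- and Pu5-, against 3.37 in untreated cells. Its brighter sets all lay below untreated cells at that time.

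The oligonucleotides were also set against each other, without any untreated array. The treated arrays had part in the choice of the genes, so these differences too are descriptions, with intervals that show their error. Over the mean of the times GPX1 stood 0.20 ± 0.05 higher with Pu27 than with Pu5- (95% interval of limma's fit 0.09 to 0.31). Set against Pu5-, Pu9- had 0.17 ± 0.05 more GPX1 on the log2 scale (0.06 to 0.28). SELENOH had a lead of 0.12 ± 0.04 with Pu27 over Pu5- (0.03 to 0.20) and of 0.11 ± 0.04 with Pu9- over Pu5- (0.03 to 0.19). For each gene both leads were taken against the same Pu5- arrays, so they are not independent of each other. Between Pu27 and Pu9-, which lies within Pu27, SELENOW differed by 0.06 (-0.05 to 0.16), SELENOH by 0.01 (-0.08 to 0.09) and GPX1 by 0.04 (-0.07 to 0.15). The other 7 members differed between oligonucleotides by between -0.04 (TXNRD1, Pu27 minus Pu5-) and 0.15 (SELENON, Pu27 minus Pu5-) over the mean of the times. At single times the largest member difference was 0.25, for GPX1 between Pu9- and Pu5- at 24 h (0.06 to 0.44). The intervals were widest for SELENON, from -0.61 to 0.68 over all its comparisons, and intervals of this width do not show that the oligonucleotides act alike. Of 120 member differences over 3 pairs, 3 times and the mean of the times, 0 passed limma's threshold over all genes and 11 had an unadjusted p below 0.05. With the replicate number as a block, GPX1 passed between Pu27 and Pu5- over the mean of the times, which is a count from chosen genes like the others. The share of all genes that passed was 0%, 0.0662%, 1.51% and 1.38% for Pu27 against Pu9- at 24, 48 and 72 h and over the mean, 0%, 0.0165%, 0.248% and 0.248% for Pu27 against Pu5-, and 0%, 0%, 0.0496% and 0% for Pu9- against Pu5-. Nothing is read from these member counts.

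**Figure D4:**
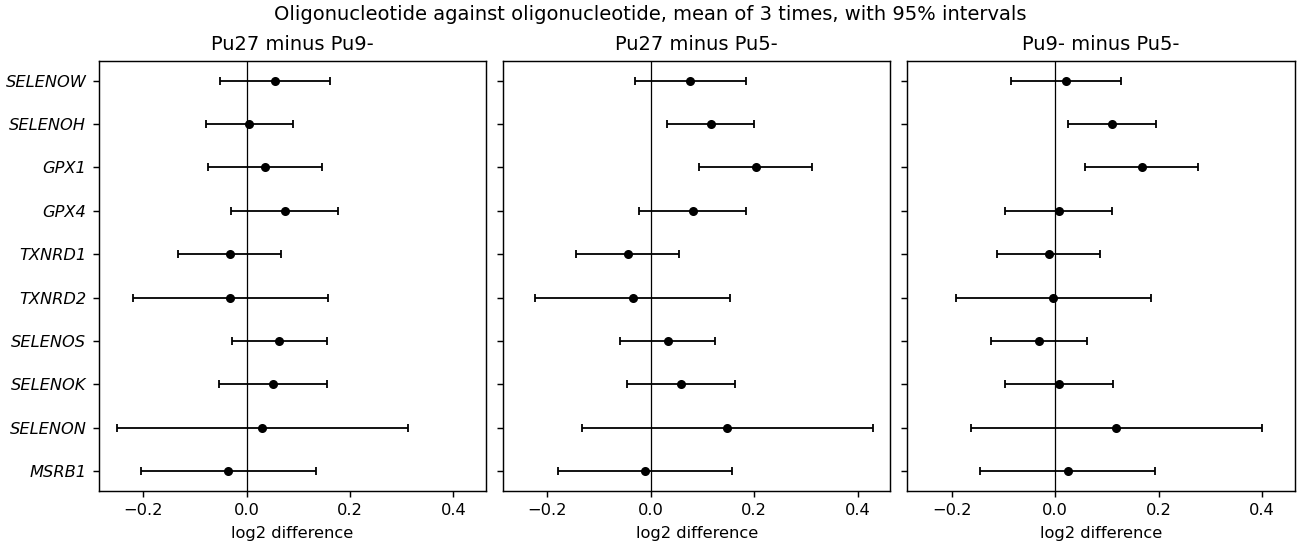
Differences between oligonucleotides for each member over the mean of 24, 48 and 72 h (log2, horizontal axes), with limma's 95% intervals (9 arrays an arm). GPX1 and SELENOH lie right of 0 in Pu27 minus Pu5- (0.20 and 0.12) and in Pu9- minus Pu5- (0.17 and 0.11), and the SELENON intervals are the widest.

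Across the 13 group means, the genes whose pattern was most like that of GPX1 by Pearson's r were NPPA (0.93), SELENOH (0.93), TMEM51-AS1 (0.90), MYO3A (0.90) and FAM171A2 (0.88). For SELENOH they were TMEM51-AS1 (0.96), GPX1 (0.93), CBLN2, MAP2K2 and SSTR3. For SELENOW they were SIK3, CCL21, TEX101 and EPCAM at 0.83 and ADGRL1 at 0.80, with SELENOH at rank 63 (r = 0.69) and GPX1 at rank 697 (r = 0.51) among all other genes. These ranks depend on the measure. Over the 39 arrays SELENOH was at rank 1 for SELENOW (r = 0.67) and GPX1 at rank 63 (r = 0.52), and by Spearman's rho over the group means both were at rank 1405 (rho = 0.48). SELENOH was at rank 2 or 1 for GPX1 by all 3 measures. The non-member genes spanned little, for example CCL21 from 4.12 to 4.35 and NPPA from 5.07 to 5.34, against 6.15 to 7.70 for SELENOW. The 13 points share their arrays and their normalisation, and these r values are descriptions.

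Of the other selenoprotein genes, 14 were measured and TXNRD3 was not analysed here. In 168 tests over the 12 comparisons with untreated cells, 1 passed limma's test and 12 had an unadjusted p below 0.05. The gene that passed was GPX3, the extracellular glutathione peroxidase, at 72 h with Pu27, which was 0.40 ± 0.10 higher (adjusted p = 0.016). That is 1 of 14 genes in a comparison in which 5.08% of all genes passed, a share near the background. Its levels were low, 3.70 with Pu27 and 3.30 in untreated cells, in a range where the 23 background probe sets of the array had a median of 3.16. The call was lost without Pu27 72 h replicate 1 (adjusted p = 0.095) or 2 (0.075), or without untreated 72 h replicate 2 (0.1) or 3 (0.067), and with the mean of all probe sets (0.16, adjusted p = 0.31). The median difference of the 14 genes at 24 h was -0.01 with Pu27, 0.01 with Pu9- and 0.01 with Pu5-, beside -0.01, 0.01 and -0.01 over all genes. SEPHS2, a selenoprotein that makes the selenium donor for selenocysteine, differed by -0.28 with Pu27 at 72 h, which did not pass.

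Of 10 genes for selenium handling and selenocysteine insertion, 2 fell with an oligonucleotide, both at 72 h with Pu27, where 5.08% of all genes passed. TRIT1, a tRNA-modifying enzyme that acts on selenocysteine tRNA, fell by 0.47 ± 0.10 (9.01 with Pu27 and 9.48 in untreated cells, adjusted p = 0.003). PSTK, the kinase that prepares the selenocysteine tRNA, fell by 0.45 ± 0.11 (8.05 and 8.50, adjusted p = 0.012). No single array left out ended the 72 h call of TRIT1. The PSTK call was lost without Pu27 72 h replicate 1 (adjusted p = 0.054) or untreated 72 h replicate 1 (0.11). TRIT1 also passed over the mean of the times (-0.20, adjusted p = 0.037), a call lost without any of 10 of the 18 arrays (adjusted p up to 0.13). At 72 h 9 of the 10 genes lay below untreated cells with each oligonucleotide, against the same untreated arrays, with medians of -0.10, -0.11 and -0.13 with Pu27, Pu9- and Pu5-, beside 0.04, -0.01 and 0.01 over all genes. The Pu27 72 h arrays also had the highest difference between 3′ and 5′ probe sets of ACTB, a sign of RNA quality, at 2.24 (SD 0.08), against 2.05 (SD 0.07) in untreated 72 h cells. With that difference as a covariate, added after the data were seen, PSTK differed by -0.40 (adjusted p = 0.061), and TRIT1 over the mean of the times by -0.20 (adjusted p = 0.051). Of 8 factors of nonsense-mediated decay, none passed limma's test in 96 tests against untreated cells, and 5 tests had an unadjusted p below 0.05.

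**Figure D5:**
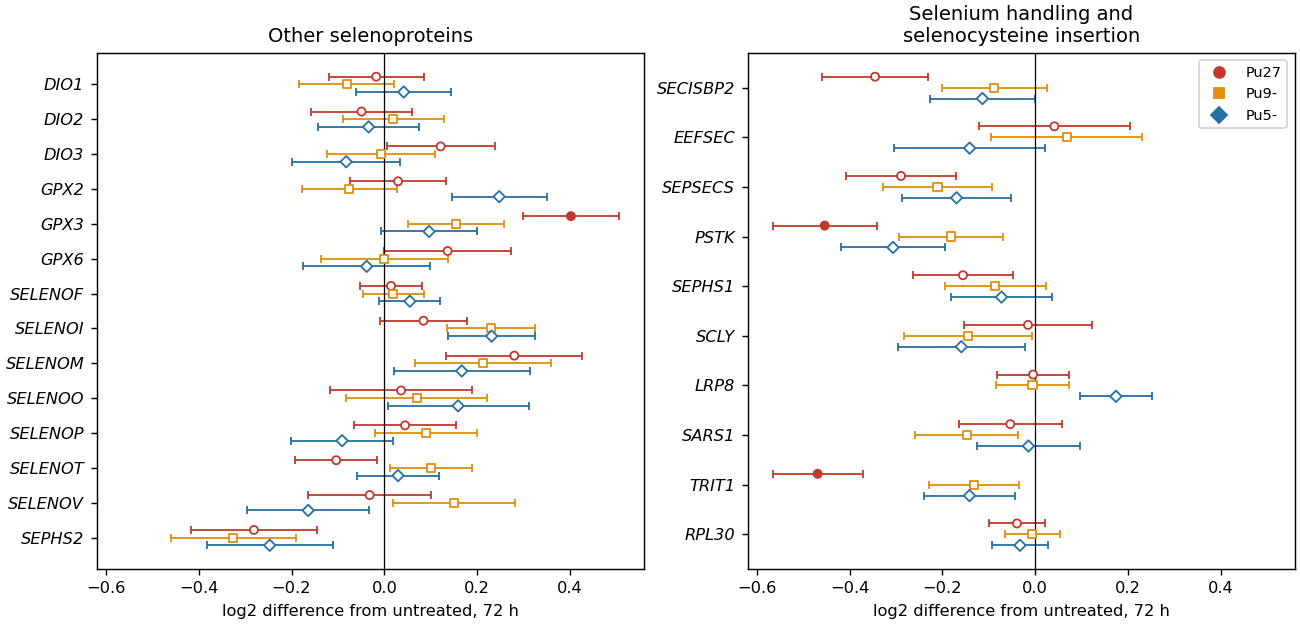
Difference from untreated cells at 72 h (log2, horizontal axes, bars of 1 standard error, 3 arrays a group) of 14 other selenoprotein genes and of 10 genes for selenium handling and selenocysteine insertion, for Pu27, Pu9- and Pu5-. Filled symbols passed limma's test, which are GPX3, PSTK and TRIT1 with Pu27, and open symbols did not.

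In untreated cells alone, some of these genes differed between times. At 24 h against 0 h, SELENOI, a phospholipid-synthesising selenoprotein of membranes, rose by 0.70 ± 0.09 (9.85 and 9.14, adjusted p = 2.8e-07 by limma), and SELENOT, a thioredoxin-like protein of the endoplasmic reticulum, by 0.57 ± 0.09 (adjusted p = 3.8e-06). SELENOM fell by 0.70 ± 0.15 (adjusted p = 0.00028). LRP8, a receptor that takes up selenoprotein P, rose by 0.82 ± 0.08 (10.33 and 9.51, adjusted p = 4.6e-10), and SEPHS1, a relative of SEPHS2, by 0.74 ± 0.11 (adjusted p = 1.3e-06). SEPSECS, the enzyme that completes selenocysteine on its tRNA, fell by 0.59 ± 0.12 at 24 h (adjusted p = 0.00016), and was 0.80 ± 0.12 higher at 72 h than at 0 h (adjusted p = 1.7e-05). Its 24 h value was 0.08 with the mean of all its probe sets, so the direction at that time depends on the probe set. In all, 5 of 14 other selenoproteins and 5 of 10 handling genes passed at 24 h, where 28.6% of all genes did. At 72 h 1 of the 14 and 1 of the 10 passed, where 15.6% of all genes did, and at 48 h 5.18% of all genes passed. No change of either list as a whole is read from these counts. At 24 h with Pu27, Pu9- and Pu5-, LRP8 stood at 10.22, 10.27 and 10.23, and 10.33 in untreated cells, and SELENOI at 9.82, 9.87 and 9.85, and 9.85 in untreated cells. At 48 h LRP8 was still 0.39 ± 0.08 above 0 h (adjusted p = 0.0022), SELENOM fell by 0.52 ± 0.15 (adjusted p = 0.03) and SELENOT rose by 0.30 ± 0.09 (adjusted p = 0.039). The SELENOM call at 48 h was lost without untreated replicate 1 or 2 of either time (adjusted p up to 0.18), and the SELENOT call without any of 5 of the 6 arrays (up to 0.21), with a common array median (0.074) and with the mean of all probe sets (0.02, adjusted p = 0.94). Neither LRP8 nor SELENOI passed against untreated cells of the same time at 24 h.

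Among the redox partners of the members, PRDX1, a cysteine peroxidase that draws on thioredoxin, rose with Pu27. At 72 h it was 0.53 ± 0.06 higher (11.90 with Pu27 and 11.37 in untreated cells, adjusted p = 3.2e-06 by limma), and over the mean of the times 0.28 ± 0.04 (adjusted p = 6.8e-06). PRDX1 in untreated cells fell by 0.50 at 72 h against 0 h (11.37 and 11.87, adjusted p = 2.6e-06), and the Pu27 level of 11.90 was close to that of 0 h. It was also higher with Pu5- at 72 h (0.30 ± 0.06, adjusted p = 0.016), a call lost without Pu5- 72 h replicate 2 (adjusted p = 0.14) or 3 (0.069) or untreated 72 h replicate 1 (0.058) or 3 (0.11). Between Pu27 and Pu9- PRDX1 differed by 0.31 ± 0.06 at 72 h (adjusted p = 0.0091), a call lost without Pu27 72 h replicate 1 (0.068) or Pu9- 72 h replicate 2 (0.051) with a common array median (0.087) and with only the groups compared in the fit (0.41). That pair differed by 0.17 ± 0.04 over the mean of the times (adjusted p = 0.011), and with arrays shifted to a common median by 0.13 (adjusted p = 0.11). GSS, the last enzyme of glutathione synthesis, rose by 0.20 ± 0.06 with Pu27 over the mean of the times (adjusted p = 0.047), a call lost without any of 13 of the 18 arrays (adjusted p up to 0.13), with the mean of all probe sets (0.051), with a common array median (0.075) and with the ACTB covariate (0.069). Of 16 partners measured, 1 passed with Pu27 at 72 h (PRDX1), where 5.08% of all genes did, a share near the background. Over the mean of the times 2 passed with Pu27 (PRDX1 and GSS), where 3.98% did. For the other PRDX1 calls the share of all genes was 0.778% with Pu5- at 72 h. Between Pu27 and Pu9- it was 1.51% at 72 h and 1.38% over the mean. With Pu27 at 72 h, 12 of the 16 lay above 0, with a median of 0.09 beside 0.04 over all genes.

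Of 8 NRF2 target genes, 2 passed against untreated cells, in opposite directions. With Pu27, 0.193% of all genes passed at 48 h, 5.08% at 72 h and 3.98% over the mean of the times, and with Pu9- 0.0882% over the mean. SLC7A11, the cystine importer that feeds glutathione synthesis, fell by 0.83 ± 0.14 with Pu27 at 48 h (7.55 with Pu27 and 8.38 in untreated cells, adjusted p = 0.0015) and by 0.47 ± 0.08 over the mean of the times (adjusted p = 0.0003). NQO1, a quinone reductase, rose by 0.20 ± 0.05 with Pu27 over the mean of the times (adjusted p = 0.02), a call lost without untreated 24 h replicate 3 (0.063) or replicate 1 of Pu27 at 24 h (0.058) or 48 h (0.053) or replicate 2 at 72 h (0.05), with the mean of all probe sets (0.14, adjusted p = 0.19) and with a common array median (0.071). NQO1 at 72 h (0.30 ± 0.09, adjusted p = 0.045) lost its call without any of the 6 arrays compared (adjusted p up to 0.17). SLC7A11 also fell with Pu9- over the mean of the times by 0.39 ± 0.08 (adjusted p = 0.039), a call lost without any of 13 of the 18 arrays (adjusted p up to 0.12), with the mean of all probe sets (0.17) and with a common array median (0.069). With Pu5- it differed by -0.27 ± 0.08 (adjusted p = 0.17), and whether the oligonucleotides differ was not shown, with -0.20 between Pu27 and Pu5- (-0.36 to -0.04, adjusted p = 0.38). Of 7 relatives of the members that carry cysteine in place of selenocysteine, MSRB3 fell, by 0.36 ± 0.09 at 72 h with Pu27 (adjusted p = 0.015) and with Pu9- (adjusted p = 0.046), where 5.08% and 0.96% of all genes passed. Its Pu27 call was lost without Pu27 72 h replicate 3 (0.083) or untreated 72 h replicate 2 (0.053) or 3 (0.052) and with the ACTB covariate (0.053), and its Pu9- call without any of 5 of the 6 arrays (adjusted p up to 0.42), with the ACTB covariate (0.062), a common array median (0.09) or the mean of all probe sets (0.055).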

How the data were processed

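Gene expression was measured on 39 Affymetrix 3′ arrays of U937 cells. The authors deposited log2 values made with RMA, per the submitters' processing notes, which also name limma; the sources used here give no version or genome build. RMA corrects background, makes the distributions of all arrays alike and summarises probes, so it compresses dim differences and does not measure total RNA per cell. Of the 2 deposited tables, 49395 shared probe sets were identical, and 102 control probe sets were set aside. A gene's value is that of its brightest probe set annotated to 1 symbol (1832 probe sets with several symbols and 2473 without a symbol were left out). limma 3.58.1 in R 4.3.3 fitted 1 mean for each of 13 groups (26 residual and 7.13 prior degrees of freedom), with Benjamini-Hochberg adjustment over 18132 genes in each contrast and a threshold of 0.05. Values after ± are standard errors. The fitting was tested on simulated data.

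The members were chosen with earlier results of these data known. The lists of related genes were written from general knowledge without use of values, though the earlier results were known by then. The rule allows all 10 members to be named in any contrast. From each list of related genes, up to 3 that passed in a contrast are named, largest first, and the genes most like a leading member are the highest by Pearson's r. Alternatives were the replicate number as a block, the mean of a gene's probe sets, leaving out dim genes (log2 below 5), a common array median, a prior as a trend, array weights, a fit of the compared groups only, arrays left out, and an ACTB covariate. Some listed genes were not analysed here.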

Additional observations from a re-analysis of the deposited data

Results flagged for a closer look

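GPX2, a glutathione peroxidase of epithelia, lay on opposite sides of untreated cells at different times with Pu5-, with a difference of -0.24 at 48 h and 0.25 at 72 h, every Pu5- array lying below the untreated arrays at 48 h and above them at 72 h. SEPHS2 did so with Pu27, with 0.10 at 24 h and -0.28 at 72 h, and LRP8 with Pu5-, with -0.10 at 24 h and 0.17 at 72 h. An F test of the difference between the 3 times gave adjusted p = 0.83, 0.74 and 0.9995 for the 3 genes (limma, over all genes), the difference between these 2 times was not tested alone, and none of the 6 differences passed limma's test on its own.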

How the results depend on the processing

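Replicate numbers were not tied to shared experiments in the labels, and samples of the same number correlated unevenly in their deviations from the group means (mean r = 0.14, from -0.38 to 0.58 over 234 pairs, against a mean of -0.07 for other numbers), although 33 of 39 arrays correlated best with their own number. With the replicate number as a block, 2 members passed with Pu9- at 72 h, and 1 passed between Pu27 and Pu5- over the mean of the times (GPX1, 0.20). In untreated cells 2 members and 7 other selenium genes then passed at 48 h, and 4 other selenium genes at 72 h. The members were chosen on these values, so their counts here and below are descriptions. The fit of the compared groups only had few residual degrees of freedom and ended the calls of GPX3 (adjusted p = 0.13), PSTK (0.064), MSRB3 (0.099 with Pu27, 0.41 with Pu9-), GSS (0.076), NQO1 (0.051 over the mean, 0.16 at 72 h), PRDX1 with Pu5- (0.33) and between Pu27 and Pu9- (0.062 over the mean), TRIT1 over the mean (0.092), and SLC7A11 with Pu27 at 48 h (0.076) and with Pu9- over the mean (0.073), and in untreated cells at 48 h those of LRP8 (0.14), SELENOM (0.24) and SELENOT (0.27). It passed 1 member at 24 h with Pu27 and 1 with Pu9-, and 0 at 48 and 72 h with Pu27, Pu9- and Pu5-. In that fit 1 other selenium gene passed with Pu27 at 72 h and 0 over its mean of times, and in untreated cells 0 members and 0 others at 48 h and 1 member and 1 other at 72 h. With array weights 5 members passed with Pu27 and 5 with Pu5- at 72 h, 2 with Pu9-, and in untreated cells 2 at 48 h and 1 at 72 h. Array weights also passed 5 other selenium genes with Pu27 at 72 h, 2 over its mean of times, 1 each with Pu9- at 72 h and with Pu5- at 24 and 72 h, and 7 and 6 in untreated cells at 48 and 72 h. The median over the members with Pu5- was then -0.0405 at 24 h and -0.12 at 48 h. The mean of all probe sets passed 2 members with Pu9- at 72 h, passed 1 at 72 h of untreated culture, and turned SEPSECS in untreated cells at 24 h to 0.0761. Leaving out dim genes passed 2 members with Pu9- at 72 h, and 2 at 48 h of untreated culture. A common array median passed 1 member and 1 other gene in untreated cells at 72 h, and a prior as a trend 2 members at 48 h and 1 other gene at 72 h. The ACTB covariate, chosen after seeing the data, passed 0 other selenium genes with Pu27 over the mean of times and 1 member in untreated cells at 72 h. Of 456 counts and medians under settings that keep all arrays of the compared groups, 413 stayed near the reported value, counts that stayed at 0 included. The cause of the 43 moves was not tested beyond the settings' own construction.

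With arrays left out, singly or all of a replicate number, the members' median difference ran with Pu27 from -0.20 to -0.06 at 24 h, from -0.23 to 0.0037 at 48 h, from -0.24 to -0.0045 at 72 h and from -0.17 to -0.09 over the mean. It ran with Pu9- from -0.23 to -0.0093, -0.20 to -0.02, -0.19 to -0.07 and -0.15 to -0.08, and with Pu5- from -0.26 to -0.08, -0.32 to -0.10, -0.16 to -0.06 and -0.16 to -0.09. In untreated cells it ran from 0.08 to 0.15, -0.10 to 0.0558 and -0.19 to -0.09 at 24, 48 and 72 h. Members passing ran from 1 to 3, 0 to 3, 0 to 3 and 3 to 5 with Pu27, from 1 to 3, 1 to 3, 0 to 2 and 3 to 3 with Pu9-, and from 3 to 3, 2 to 3, 0 to 2 and 3 to 4 with Pu5-. In untreated cells they ran from 4 to 6, 0 to 1 and 1 to 2. Other selenium genes passing ran from 0 to 4 with Pu27 at 72 h, 0 to 1 over its mean, 0 to 1 with Pu9- and with Pu5- at 72 h, and 7 to 9, 0 to 3 and 1 to 4 in untreated cells. Between oligonucleotides the members' count was 0 with each of these arrays left out. With 3 arrays a group, differences of the size seen between oligonucleotides lie near what these arrays can resolve, and dim probe sets, near the background median of 3.16, are compressed by RMA.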
